A study of Mus musculus with 6 samples.

Results

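The 40 genes described here mark leukocytes of the kidney or attract them, and all 40 were found by symbol among the 24434 gene symbols of the count table. They comprise 13 macrophage markers, the pan-leukocyte marker Ptprc, 2 macrophage growth factors, 5 chemokines, 7 T cell markers, 3 markers of cytotoxic lymphocytes, 3 of B cells, 2 of plasma cells and 4 of neutrophils. They were measured by RNA sequencing of polyadenylated RNA from whole kidneys of mice on normal chow, in 3 db/db libraries and 3 db/m libraries. Leptin signalling is lost through the db allele of Lepr, the leptin receptor gene, and homozygous db/db animals become obese and diabetic. The db/m animals served as lean controls and, in the usual breeding scheme for this model, carry the db allele on a single chromosome. The sources used here do not state age, sex or strain, or whether the 3 libraries of a genotype are 3 mice. The p-values therefore rest on the spread between these libraries, which may be technical.

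Resident macrophages are the commonest leukocytes of the healthy mouse kidney and lie between the tubules. They depend on the receptor CSF1R, which has a pair of ligands, colony stimulating factor 1 (Csf1) and interleukin 34 (Il34), both made by tubular epithelium among other cells. Chemokines such as CCL2 and CX3CL1 guide monocytes and lymphocytes into the tissue through receptors on those cells, CX3CR1 being the receptor of CX3CL1. Neutrophils are rare in uninjured kidney, and plasma cells secrete antibodies, in which the J chain joins the units of IgA and IgM.

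Total counts were 27023129 to 29868789 in db/db libraries and 25937756 to 35931140 in db/m libraries. Values below are counts, or CPM, the usual unit of counts relative to the library total, here after TMM scaling (TMM corrects for differences in RNA composition). All 11 listed kidney segment genes were detected in every library. Lepr, the gene the db allele affects, stood at 5.66, 2.53 and 5.14 CPM in db/db libraries, against 2.94, 2.48 and 3.603 CPM in db/m libraries, and a count over the whole gene need not show the allele. Adipocyte RNA differed between libraries, with Adipoq at 0.521, 0.0792 and 19.2 CPM in db/db replicates 1 to 3, against 1.34, 0.506 and 13.6 CPM in db/m replicates 1 to 3. The 6 red blood cell genes summed to 62.0, 106 and 300.2 CPM in db/db libraries, against 61.3, 196 and 75.7 CPM in db/m libraries. The 5 adrenal genes in the table summed to 4.05, 3.604 and 4.34 CPM in db/db libraries, against 15.1, 7.71 and 6.60 CPM in db/m libraries, highest in db/m replicate 1. Of these, Hsd3b1, an enzyme of steroid synthesis, had 13, 8 and 12 counts in db/db libraries, against 247, 145 and 88 counts in db/m libraries (log2 fold change -3.58, edgeR adjusted p = 0.00401), while Cyp11b1 and Cyp21a1 had no count in any library. Star, also on the adrenal list, had 168, 149 and 110 counts in db/m libraries. Cyp11a1 also had no count in db/db libraries, but its order within db/m differed, with 0, 11 and 7 counts in db/m replicates 1 to 3. The part of adrenal or other admixed RNA in the member results was not tested. The member genes set db/m replicate 1 apart from the other libraries, as described further down, and results that rest on it are given with and without it.

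Of the 40 members, 37 had enough counts for the test, and Gzma, Ms4a1 and Cxcr2 did not. The edgeR quasi-likelihood test, with p adjusted by Benjamini-Hochberg over 16373 genes and a threshold of 0.05, called 1 member higher and 5 lower in db/db kidneys. Il34 rose, and Lyz2, Cx3cr1, Cd14, Lck and Jchain fell. These are 2.70% and 13.5% of the tested members, beside 13.1% of all tested genes called higher and 10.8% called lower (24.0% in all), so the lower share was close to the background and the higher share was below it. With total counts only, without TMM, 1 member was higher and 7 were lower, while over all genes 1072 were higher and 4883 lower, against 2151 and 1774 with TMM. In 31 of 37 tested members the fold change was negative, beside 8954 of all 16373 tested genes. The median was -0.62 on the log2 scale in tested members and -0.06 over all tested genes. Many members moved together between libraries, as described further down, so these are not independent results. The groups did not overlap in 3 members with db/db above and in 5 with db/db below, or 8.11% and 13.5%, beside 22.4% and 22.2% of all tested genes (44.6% in all). In bulk tissue, fewer cells of a type and less RNA per cell cannot be told apart.

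**Figure D1:**
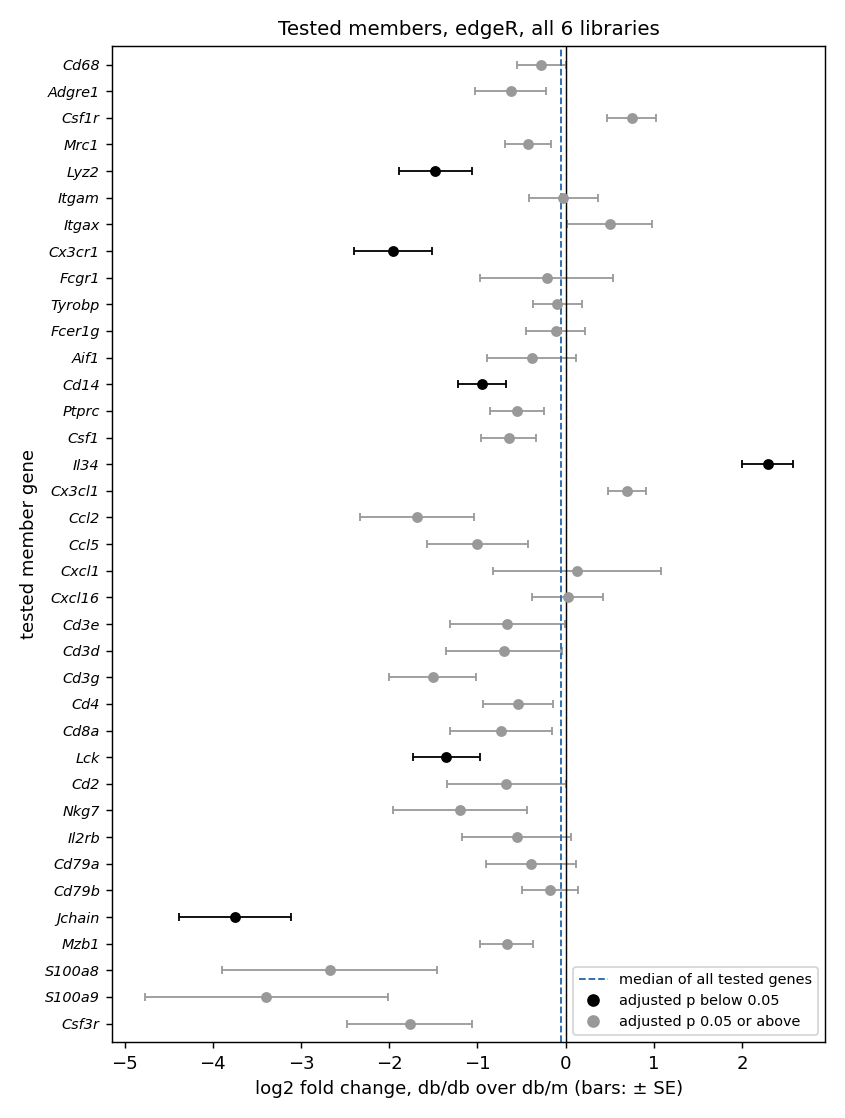
Log2 fold change of each of the 37 tested members, db/db over db/m, with bars of ± SE from edgeR on all 6 libraries. Black points passed at an adjusted p below 0.05, and the dashed line is the median of all tested genes at -0.06. Il34 lies farthest right at 2.29 and Jchain farthest left at -3.75.

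Of the 2 macrophage growth factors, Il34 rose in db/db and Csf1 did not pass the test. Il34 had 1053, 916 and 864 counts in db/db libraries, against 124, 292 and 327 counts in db/m libraries. Every db/db library was above every db/m library. On the CPM scale it averaged 36.7 ± 5.37 in db/db and 7.47 ± 3.01 in db/m (SD, n = 3 each), a 4.90-fold higher level in db/db (log2 fold change 2.29, SE 0.29, edgeR adjusted p = 0.00231). Il34 passed the test under all 15 alternative settings, with log2 fold changes of 2.02 to 2.72. Csf1, the other ligand of the receptor, had 215, 154 and 222 counts in db/db libraries, against 189, 649 and 383 counts in db/m libraries. Its groups overlapped, and db/m replicate 1 lay within the db/db range at 6.86 CPM, beside 6.10 to 8.62 CPM in db/db. Its log2 fold change was -0.64 (SE 0.31, edgeR adjusted p = 0.170), and -0.90 (adjusted p = 0.0302) without db/m replicate 1. Per kilobase of exon (GENCODE M21 exon lengths), Il34 exceeded Csf1 by 13.2, 16.0 and 10.5 times in db/db libraries, against 1.77, 1.21 and 2.30 times in db/m libraries. That ratio of levels did not overlap between the groups.

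**Figure D2:**
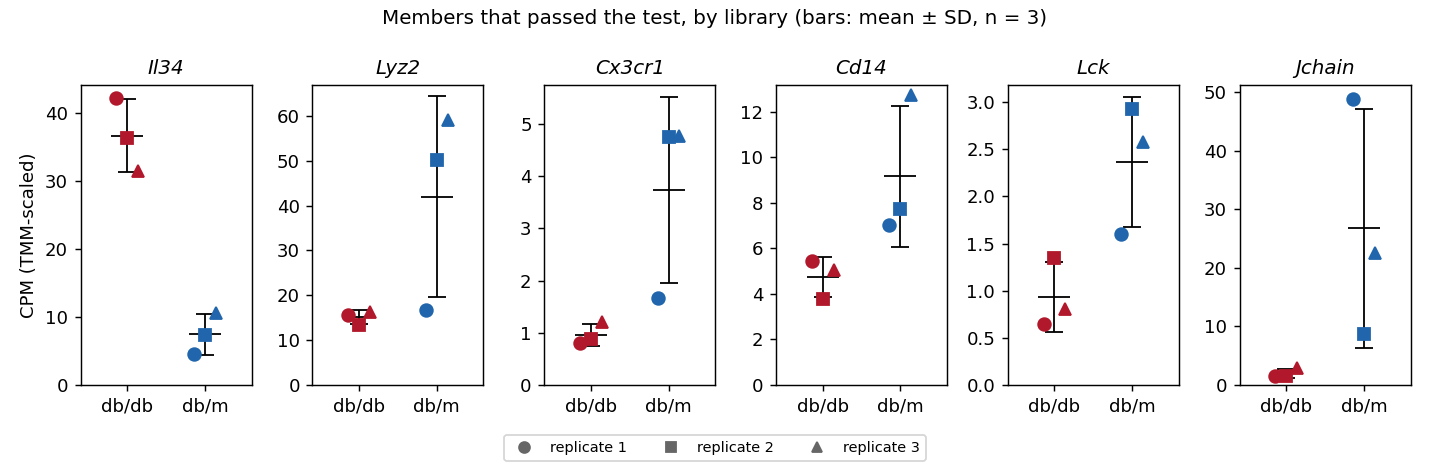
Level of the 6 members that passed the test, in CPM on linear axes from 0, with db/db libraries (red) left of db/m libraries (blue); symbols mark the replicate and bars the mean ± SD of 3 libraries. Lyz2 and Cx3cr1 in db/m replicate 1 lie close to the db/db libraries, whereas Jchain is highest in db/m replicate 1, at 48.8 CPM.

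Csf1r, the receptor of both ligands, had 1806, 1114 and 1510 counts in db/db libraries, against 589, 1603 and 1247 counts in db/m libraries. As CPM the groups did not overlap, at 44.1 to 72.4 in db/db and 21.4 to 40.5 in db/m, but the gene did not pass the test (log2 fold change 0.75, SE 0.27, edgeR adjusted p = 0.0874), whereas DESeq2 called it (adjusted p = 0.0180). Adgre1, which encodes the macrophage surface protein F4/80, had 57, 66 and 75 counts in db/db libraries, against 47, 197 and 156 counts in db/m libraries. The difference did not pass (log2 fold change -0.62, adjusted p = 0.290) and was -0.96 (adjusted p = 0.0235) when db/m replicate 1 was left out. Per kilobase of exon, Csf1r exceeded Adgre1 by 17.8, 9.47 and 11.3 times in db/db libraries, against 7.03, 4.56 and 4.48 times in db/m libraries. The level of the receptor relative to Adgre1 did not overlap between the groups. Relative to Itgam, Itgax, Fcgr1 and Aif1 it overlapped, and relative to the other macrophage markers it did not. These ratios were not tested. In GENCODE M21 Csf1r overlaps Hmgxb3, which had 749 to 829 counts in db/db and 791 to 1027 counts in db/m.

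Of the 13 macrophage markers, 3 fell and 0 rose by edgeR (1 was higher at an unadjusted p below 0.05). DESeq2 called 3 lower and 1 higher, and limma-voom called 1 lower, Cx3cr1, and 0 higher. Lyz2, which encodes the lysozyme of macrophages and neutrophils, had 391, 335 and 446 counts in db/db libraries, against 459, 1982 and 1838 counts in db/m libraries. It averaged 15.1 ± 1.59 CPM in db/db and 42.0 ± 22.4 CPM in db/m, with db/m replicate 1 at 16.7 CPM just above the highest db/db library at 16.3 CPM (log2 fold change -1.48, SE 0.41, edgeR adjusted p = 0.0395). Without db/m replicate 1 it was -1.84 (adjusted p = 0.000969), and leaving out any of the other 5 libraries ended the call (adjusted p = 0.0947 to 0.124), as did limma-voom (0.105) and a replicate block (0.0798). Its near copy Lyz1 had 4, 4 and 12 counts in db/db and 4, 36 and 26 in db/m, and reads shared between both could be split either way.

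Cx3cr1, the fractalkine receptor carried by resident macrophages and monocytes, had 20, 22 and 33 counts in db/db libraries, against 46, 188 and 148 counts in db/m libraries. All db/db libraries lay below all db/m libraries, and db/m replicate 1 was the lowest of the db/m libraries. The log2 fold change was -1.96 (SE 0.44, edgeR adjusted p = 0.0196), and the call ended when any db/db library (adjusted p = 0.0505 to 0.0717) or db/m replicate 2 (adjusted p = 0.0626) was left out. Cd14, the coreceptor for bacterial lipopolysaccharide, had 136, 95 and 138 counts in db/db libraries, against 194, 305 and 396 counts in db/m libraries. These groups did not overlap either, and the log2 fold change was -0.95 (SE 0.27, edgeR adjusted p = 0.0438). The call on Cd14 held without db/m replicate 1 (adjusted p = 0.0375) and ended without any of the other libraries (adjusted p = 0.0679 to 0.129), in limma-voom (0.0586) and with a replicate block (0.0659). Cx3cr1 overlaps 9 genes in GENCODE M21, among them Csrnp1 and Wdr48, and whether counting used the strand is not stated in the sources used here.

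The other macrophage markers had log2 fold changes between -0.43 and 0.50 and groups that overlapped. The lysosomal protein gene Cd68 averaged 3.66 ± 0.238 CPM in db/db and 4.42 ± 1.52 CPM in db/m. Mrc1, the mannose receptor, averaged 2.64 ± 0.104 CPM in db/db and 3.55 ± 1.03 CPM in db/m. Tyrobp and Fcer1g, signalling adaptors of myeloid receptors, had log2 fold changes of -0.10 (SE 0.28) and -0.11 (SE 0.33). The integrin genes Itgam and Itgax had log2 fold changes of -0.02 (SE 0.39) and 0.50 (SE 0.48). Itgax had 110, 123 and 119 counts in db/db libraries, against 28, 153 and 146 counts in db/m libraries, and its low library was db/m replicate 1. The same library was lowest for the Fc receptor gene Fcgr1 and for Aif1, which encodes IBA1. Fcgr1 had 19, 16 and 42 counts in db/db libraries, against 4, 75 and 41 counts in db/m libraries. Ptprc, which encodes CD45 of all nucleated blood cells, had 132, 128 and 155 counts in db/db libraries, against 119, 380 and 294 counts in db/m libraries. It did not pass over all 6 libraries (log2 fold change -0.55, SE 0.30, edgeR adjusted p = 0.223) and passed as lower with db/m replicate 1 left out (-0.82, adjusted p = 0.0177).

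**Figure D3:**
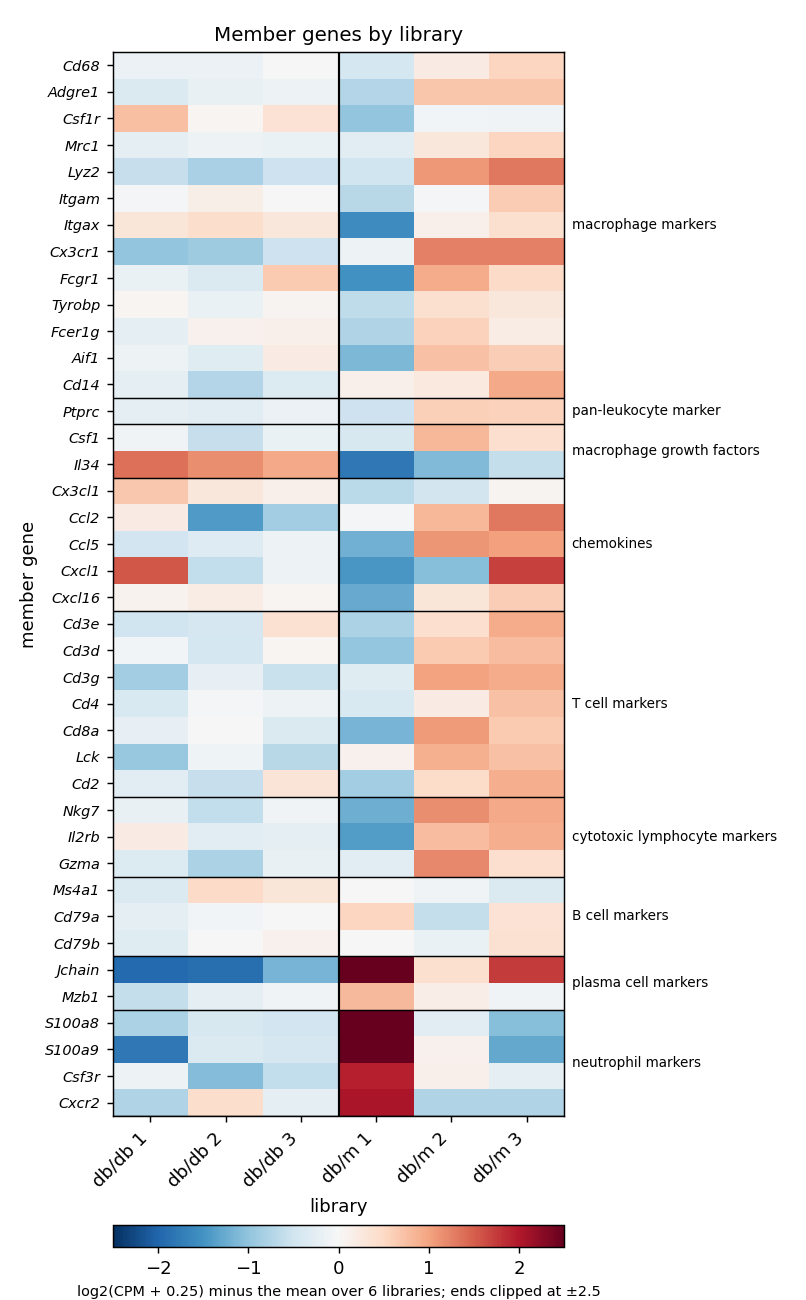
Each row is a member, grouped by role, and each column a library, db/db left of db/m; colour is log2(CPM + 0.25) minus the mean over 6 libraries, clipped at ±2.5. Macrophage, T cell and cytotoxic rows are palest or bluest in db/m replicate 1 among the db/m libraries, whereas its neutrophil and plasma cell rows are the reddest.

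None of the 5 chemokines passed by edgeR (1 was higher and 1 lower at an unadjusted p below 0.05; DESeq2 and limma-voom each called Cx3cl1 higher). Cx3cl1, the ligand of CX3CR1, had 2532, 1954 and 1898 counts in db/db libraries, against 1100, 1830 and 2066 counts in db/m libraries. On the CPM scale all db/db libraries were above all db/m libraries, at 69.2 to 102 in db/db and 39.9 to 66.5 in db/m. Its log2 fold change was 0.70 (SE 0.22, edgeR adjusted p = 0.0533), with adjusted p = 0.00658 in DESeq2, 0.0480 in limma-voom and 0.0156 without db/m replicate 3. Ccl2, which attracts monocytes, had 28, 5 and 11 counts in db/db libraries, against 25, 74 and 85 counts in db/m libraries. Replicate 1 of each label had nearly the same level, 1.12 CPM in db/db and 0.908 CPM in db/m. The log2 fold change was -1.68 (SE 0.65, edgeR adjusted p = 0.1005), and -2.59 (adjusted p = 0.0435) without db/db replicate 1.

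Ccl5, made by T cells and macrophages, had 52, 59 and 74 counts in db/db libraries, against 32, 267 and 196 counts in db/m libraries. It averaged 2.37 ± 0.308 CPM in db/db and 4.74 ± 3.11 CPM in db/m and did not pass (adjusted p = 0.236). With db/m replicate 1 left out it was lower in db/db (log2 fold change -1.44, edgeR adjusted p = 0.00735). Cxcl16, a membrane-bound chemokine, averaged 41.0 ± 2.14 CPM in db/db and 40.3 ± 22.1 CPM in db/m, and db/m replicate 1 was the lowest library at 15.7 CPM. Cxcl1, which attracts neutrophils, had 329, 69 and 108 counts in db/db libraries, against 39, 77 and 459 counts in db/m libraries. The high libraries for Cxcl1 were thus db/db replicate 1 and db/m replicate 3, at 13.2 and 14.8 CPM. Its lowest level, 1.42 CPM, was in db/m replicate 1, where the neutrophil markers were highest.

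All 7 T cell markers had negative fold changes, and 1 of them, Lck, fell (0 rose by edgeR, DESeq2 or limma-voom, or at an unadjusted p below 0.05). Lck, the kinase that starts T cell receptor signalling, had 16, 34 and 22 counts in db/db libraries, against 44, 116 and 80 counts in db/m libraries. The groups did not overlap, at 0.642 to 1.35 CPM in db/db and 1.598 to 2.93 CPM in db/m (log2 fold change -1.35, SE 0.38, edgeR adjusted p = 0.0390). The call held when db/m replicate 1 or db/db replicate 2 was left out (adjusted p = 0.0301 and 0.0402), and ended without db/db replicate 1, db/db replicate 3, db/m replicate 2 or db/m replicate 3 (adjusted p = 0.0790 to 0.125). Cd3g, a chain of the CD3 complex, had 9, 18 and 14 counts in db/db libraries, against 18, 78 and 58 counts in db/m libraries. Its log2 fold change was -1.51 (SE 0.49, edgeR adjusted p = 0.0643), and -1.84 (adjusted p = 0.0186) without db/m replicate 1. Cd3g was called lower by DESeq2 (adjusted p = 0.0434) and with total counts only (adjusted p = 0.0317), so that DESeq2 called 2 T cell markers lower and limma-voom 1, Lck.

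The other CD3 chains did not pass. Cd3e had 8, 9 and 22 counts in db/db libraries, against 6, 33 and 40 counts in db/m libraries, and Cd3d had 12, 8 and 15 in db/db, against 4, 38 and 33 in db/m. In both, db/m replicate 1 was the lowest of all 6 libraries. The coreceptor Cd4 had 18, 25 and 25 counts in db/db libraries, against 20, 48 and 58 counts in db/m libraries. The coreceptor Cd8a had 32, 39 and 31 counts in db/db libraries, against 15, 136 and 79 counts in db/m libraries. Cd8a was called lower when db/m replicate 1 was left out (-1.17 on the log2 scale, edgeR adjusted p = 0.0339), and Cd4 was not (adjusted p = 0.154). Cd2, an adhesion receptor of T and NK cells, had 10, 7 and 20 counts in db/db, against 5, 33 and 38 counts in db/m.

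Of the 3 cytotoxic markers, both tested members did not pass by edgeR, DESeq2 or limma-voom, and 0 had an unadjusted p below 0.05. Nkg7, a granule membrane protein gene of NK and CD8 T cells, had 14, 9 and 17 counts in db/db libraries, against 4, 72 and 48 counts in db/m libraries. Il2rb, a subunit of the interleukin 2 and 15 receptors, had 51, 35 and 40 counts in db/db libraries, against 14, 125 and 108 counts in db/m libraries. Without db/m replicate 1 both were called lower in db/db, Nkg7 by -1.69 (adjusted p = 0.0232) and Il2rb by -1.01 (edgeR adjusted p = 0.0467) on the log2 scale. Gzma, which encodes the protease granzyme A and was too low to test, had 5, 2 and 7 counts in db/db libraries, against 6, 42 and 16 counts in db/m libraries.

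**Figure D4:**
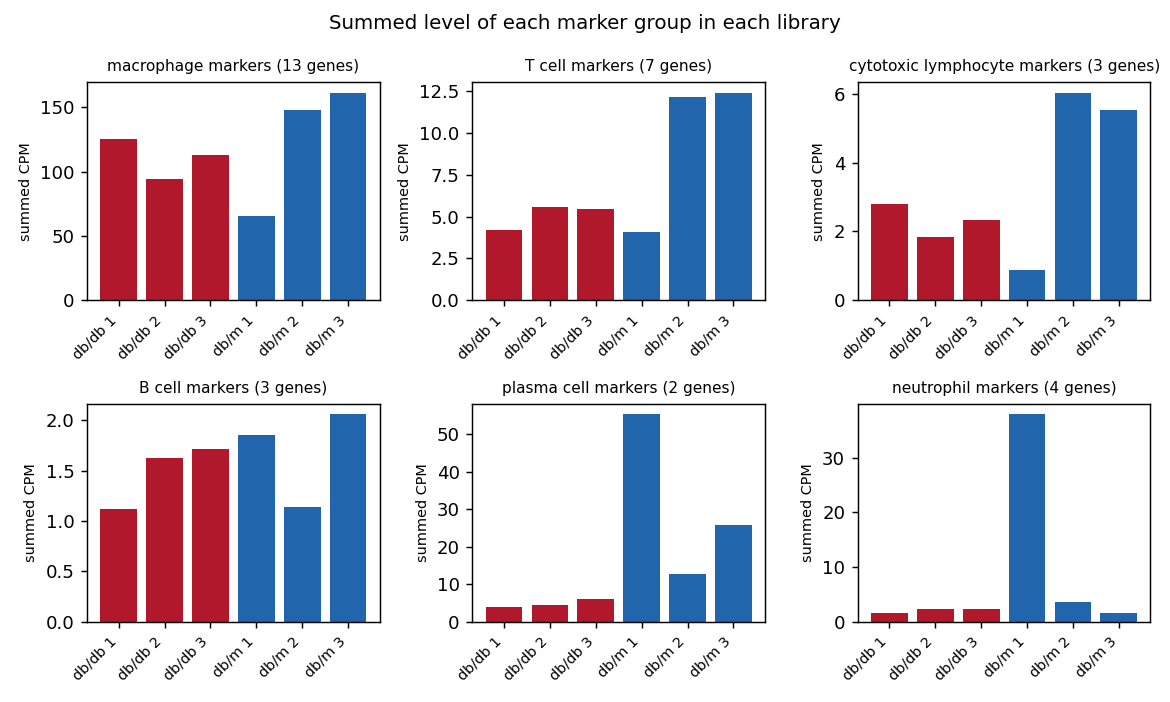
Summed CPM of the members of each cell type in each library, on linear axes from 0, db/db in red left of db/m in blue. Db/m replicate 1 has the lowest sum for macrophage (65.4), T cell (4.07) and cytotoxic (0.872) markers and the highest for plasma cell (55.3) and neutrophil (38.0) markers.

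None of the B cell markers passed the test, and Ms4a1 was near the limit of detection. Ms4a1, which encodes CD20, had 0, 5 and 4 counts in db/db libraries, against 2, 2 and 0 counts in db/m libraries, and a count of 0 allows up to 0.120 CPM in db/db replicate 1 and 0.0965 CPM in db/m replicate 3. Cd79a and Cd79b, the signalling chains of the B cell receptor, had log2 fold changes of -0.39 (SE 0.51) and -0.17 (SE 0.32). Neither passed by edgeR, DESeq2 or limma-voom, and 0 had an unadjusted p below 0.05. Cd79b had 19, 25 and 30 counts in db/db libraries, against 27, 34 and 43 counts in db/m libraries. Both groups overlapped at these depths, and no difference was detectable.

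The plasma cell marker Jchain, the J chain of IgA and IgM, had the lowest fold change of the tested members. It had 38, 40 and 77 counts in db/db libraries, against 1345, 347 and 700 counts in db/m libraries. Every db/db library lay below every db/m library, and the db/m libraries spread from 8.77 to 48.8 CPM. The level was 13.4-fold lower in db/db (log2 fold change -3.75, SE 0.64, edgeR adjusted p = 0.00716). Without db/m replicate 1, the highest library, the log2 fold change was -2.97 (adjusted p = 0.00855), and the call held without each of the other libraries as well, but not in limma-voom (adjusted p = 0.0577). Mzb1, a chaperone gene of antibody-secreting cells, had 57, 76 and 92 counts in db/db libraries, against 178, 159 and 103 counts in db/m libraries. It did not pass (log2 fold change -0.67, SE 0.30, edgeR adjusted p = 0.146), and db/db replicate 3 at 3.36 CPM and db/m replicate 3 at 3.31 CPM overlapped. In GENCODE M21 a gene named SPATA24 overlaps Mzb1. Spata24 had 281, 303 and 323 counts in db/db libraries, against 249, 284 and 241 counts in db/m libraries. Of 14 other plasma cell genes listed, 10 were found by symbol and 8 were tested. The antibody genes Igha, Ighg1, Ighg2b and Ighg2c were not found, so they could not be set beside Jchain. Among the tested genes 0 rose by edgeR, DESeq2 or limma-voom, or at an unadjusted p below 0.05. By edgeR 1 fell, with 2 lower at an unadjusted p below 0.05. The 1 that fell, Sdc1, which tubular epithelium also expresses, had a log2 fold change of -0.86 (adjusted p = 0.0310), and the call ended without db/db replicate 2, db/db replicate 3, db/m replicate 2 or db/m replicate 3 (adjusted p = 0.0569 to 0.0946).

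The neutrophil markers rested on db/m replicate 1. S100a8 and S100a9, the subunits of calprotectin, had 9, 14 and 14 and 6, 27 and 28 counts in db/db libraries. In db/m libraries S100a8 had 231, 25 and 8 counts and S100a9 had 627, 63 and 14 counts. Csf3r, the receptor of granulocyte colony stimulating factor, had 27, 11 and 19 counts in db/db libraries, against 146, 53 and 30 counts in db/m libraries. Cxcr2, the receptor through which neutrophils follow CXCL1 and related chemokines, had 0, 8 and 3 counts in db/db libraries, against 41, 0 and 0 counts in db/m libraries. All 4 were highest in db/m replicate 1, and the other 5 libraries overlapped between the labels. The 3 tested markers had log2 fold changes of -2.67 (SE 1.22), -3.39 (SE 1.38) and -1.77 (SE 0.71) for S100a8, S100a9 and Csf3r, and 0 passed by edgeR, with 2 at an unadjusted p below 0.05. DESeq2 called 2 of them, S100a8 and Csf3r, as lower, and limma-voom 0. Without db/m replicate 1 the log2 fold changes were 0.09, -0.39 and -0.63, and none passed (edgeR adjusted p = 0.361 to 0.921).

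Promoter windows are shown for these 4 neutrophil genes, which were high together in db/m replicate 1, and for Jchain, high there as well, and Lyz2, which was low there. They run from 250 bases before to 50 after each annotated gene start and come from RefSeq on GRCm38.p6, in which 26 of the 40 members had an entry, with 28 windows. S100a8 lies at chr3:90668821-90669120 (+ strand), S100a9 at chr3:90695672-90695971 (- strand) and Csf3r at chr4:126024409-126024708 (+ strand). Cxcr2 lies at chr1:74153744-74154043 (+ strand), Jchain at chr5:88527848-88528147 (- strand) and Lyz2 at chr10:117282223-117282522 (- strand). Capitals mark matches on either strand to GAGGAA, a core bound by PU.1 and other ETS factors, and to TATAAA, the TATA box letters; no matches overlap.
S100a8: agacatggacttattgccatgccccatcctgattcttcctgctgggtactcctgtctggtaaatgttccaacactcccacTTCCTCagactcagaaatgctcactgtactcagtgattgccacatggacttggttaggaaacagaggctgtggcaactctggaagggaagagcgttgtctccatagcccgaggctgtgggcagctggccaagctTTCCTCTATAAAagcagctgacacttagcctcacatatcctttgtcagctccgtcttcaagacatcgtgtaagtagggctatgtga
S100a9: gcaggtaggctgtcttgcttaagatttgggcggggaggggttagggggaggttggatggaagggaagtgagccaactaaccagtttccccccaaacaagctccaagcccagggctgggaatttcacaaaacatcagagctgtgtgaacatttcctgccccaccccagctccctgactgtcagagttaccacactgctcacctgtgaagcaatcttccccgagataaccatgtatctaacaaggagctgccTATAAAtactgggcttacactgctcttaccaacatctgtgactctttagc
Csf3r: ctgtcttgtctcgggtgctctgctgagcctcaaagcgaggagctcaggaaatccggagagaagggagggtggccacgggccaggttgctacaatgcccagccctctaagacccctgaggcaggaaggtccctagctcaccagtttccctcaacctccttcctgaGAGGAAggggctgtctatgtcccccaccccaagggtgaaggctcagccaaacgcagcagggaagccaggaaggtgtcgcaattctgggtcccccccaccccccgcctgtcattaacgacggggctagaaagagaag
Cxcr2: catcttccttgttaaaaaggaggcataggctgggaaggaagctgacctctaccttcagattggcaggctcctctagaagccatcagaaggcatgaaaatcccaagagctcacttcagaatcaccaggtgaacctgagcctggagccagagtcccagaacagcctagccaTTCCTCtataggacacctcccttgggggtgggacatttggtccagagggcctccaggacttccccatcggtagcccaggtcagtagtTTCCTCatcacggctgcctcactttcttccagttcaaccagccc
Jchain: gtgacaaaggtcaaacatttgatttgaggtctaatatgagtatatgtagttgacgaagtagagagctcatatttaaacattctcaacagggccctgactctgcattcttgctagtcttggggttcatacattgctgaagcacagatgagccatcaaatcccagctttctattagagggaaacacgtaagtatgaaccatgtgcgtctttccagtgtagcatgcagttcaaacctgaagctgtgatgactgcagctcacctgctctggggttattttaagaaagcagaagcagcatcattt
Lyz2: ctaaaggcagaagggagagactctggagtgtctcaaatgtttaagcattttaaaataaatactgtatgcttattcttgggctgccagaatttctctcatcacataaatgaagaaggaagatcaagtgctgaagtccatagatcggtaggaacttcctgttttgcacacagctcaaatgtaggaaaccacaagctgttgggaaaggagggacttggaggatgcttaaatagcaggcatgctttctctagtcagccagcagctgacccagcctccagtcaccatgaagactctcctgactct

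GAGGAA was found in S100a8 and Cxcr2 in 2 places each and in Csf3r in 1. In S100a8 a match begins 36 bases before the annotated start and runs up to the TATAAA match that begins 30 bases before it. S100a9 held TATAAA at its annotated start, and the Jchain and Lyz2 windows held neither. Of the 28 member windows 16 held GAGGAA, beside 28.3% of 32851 windows of the same length, and 4 held TATAAA (Cx3cl1, Ptprc, S100a8 and S100a9), beside 13.6%. A match describes the letters only, and the data hold no measure of binding.

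Across roles, db/m replicate 1 was the lowest of the 3 db/m libraries in all 24 macrophage, T cell, cytotoxic and pan-leukocyte members, and the lowest of all 6 libraries in 17 of them. It was also the lowest db/m library for both growth factors and all 5 chemokines. Over the 37 tested members it was the lowest library in 22, or 59.5%, beside 17.6% of all tested genes. It was the highest of the 6 libraries in all 4 neutrophil and both plasma cell members, but in 3 of the 10 other plasma cell genes in the table, while it was the lowest db/m library in 5 of those 10. The 18 other neutrophil genes on the list were highest there in 9 cases, among them Retnlg with 4, 7 and 3 counts in db/db libraries, against 60, 10 and 0 counts in db/m libraries, and Il1b with 11, 27 and 37 counts in db/db, against 261, 53 and 92 counts in db/m. In 7 of the 18, ties at 0 counted, db/m replicate 1 was the lowest db/m library. Lcn2 had 78 counts there, beside 553 and 272 counts in db/m replicates 2 and 3. Mpo and Ngp had counts only in db/m replicate 2. These genes were named after their values were seen. Ly6g had no count in db/m replicate 1, and the red blood cell genes there summed to 61.3 CPM, the lowest of the 6 libraries. The spread between libraries, as the coefficient of variation of CPM, was larger in db/m than in db/db for 35 of 37 tested members, or 94.6%, beside 54.4% of all tested genes. Its median over tested members was 18.9% in db/db and 51.2% in db/m, and over all tested genes 12.2% in db/db and 13.5% in db/m.

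With db/m replicate 1 left out, 1 of 38 tested members was higher and 13 were lower in db/db, or 2.63% and 34.2%, beside 12.0% and 9.02% of 16807 tested genes. The called members included all 6 that were called with every library in, and Gzma, which could be tested in that fit, did not pass (adjusted p = 0.0527). The added ones were Adgre1, Ptprc, Csf1, Ccl5, Cd3g, Cd8a, Nkg7 and Il2rb, all lower. Db/m replicate 1 was singled out because many of these same members were low in it. The larger share of lower calls without it follows in part from that choice and is no separate evidence of a difference. With any other single library left out, 1 to 3 members were lower. Without db/m replicate 2 only Il34 and Jchain were called, and the same 2 without db/db replicate 3. Without db/db replicate 1 these 2 and Ccl2 were called, without db/db replicate 2 these 2 and Lck, and without db/m replicate 3 these 2, Cx3cr1, Cx3cl1 and S100a9. Replicate 3 had the highest summed adipocyte genes within each genotype. When both were left out, Il34 and Cx3cl1 were higher and Jchain was lower. Whether adipose tissue in those libraries bears on the other members was not tested.

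**Figure D5:**
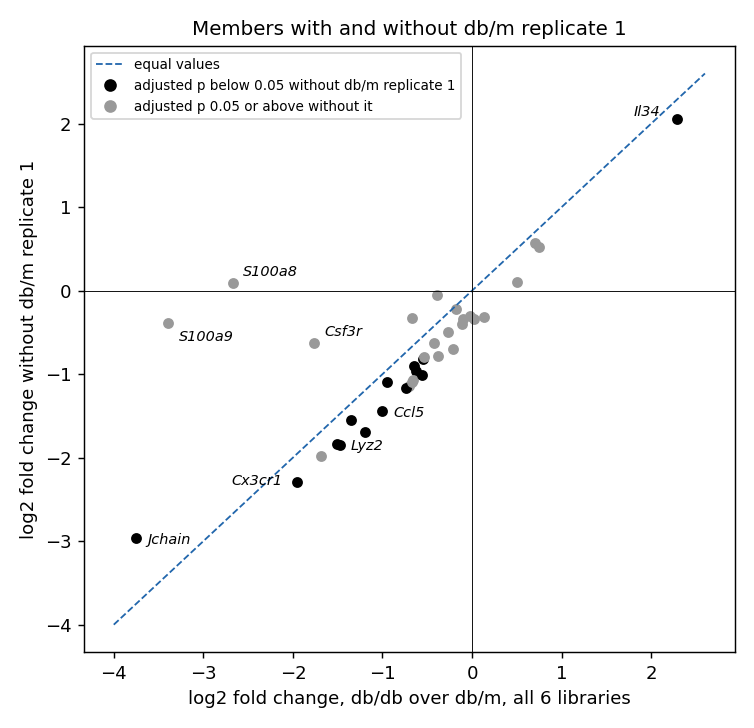
Log2 fold change, db/db over db/m, of each tested member with all 6 libraries (horizontal) and without db/m replicate 1 (vertical), with the line of equal values dashed. Black points passed without that library; S100a8 and S100a9 lie far from the line, at 0.09 and -0.39 without it, and most other members lie below it.

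Other leukocyte genes were taken from lists of the same and related cell types. The background for each list is that of all 16373 tested genes. Of these 13.1% were called higher, 10.8% were called lower and 8954 had negative fold changes. Of 42 other macrophage genes, 40 were tested, and 3 rose and 4 fell, with negative fold changes in 34 and a median of -0.40 on the log2 scale, beside -0.06 over all tested genes. Among the risers were Cyba, a subunit of the NADPH oxidase, and Fcgr2b, the inhibitory Fc receptor, with log2 fold changes of 0.71 and 0.47. Cyba is widely expressed outside macrophages. The call on Cyba ended without both replicates 3 (adjusted p = 0.0518). That on Fcgr2b ended without db/db replicate 3 (adjusted p = 0.0592) or db/m replicate 2 (adjusted p = 0.0588), and with total counts only (adjusted p = 0.111). Trem2, a lipid-sensing receptor of macrophages, had 0, 0 and 7 counts in db/db libraries, against 22, 74 and 97 counts in db/m libraries (edgeR adjusted p = 0.0206). Its call ended when db/db replicate 1, db/db replicate 2 or db/m replicate 2 was left out (adjusted p = 0.0523 to 0.0650), and without db/db replicate 3 all remaining db/db libraries were at 0. Gpnmb, a glycoprotein of lipid-laden macrophages named after its values were seen, had 0, 0 and 5 counts in db/db libraries, against 19, 34 and 348 counts in db/m libraries. All its db/db counts were in db/db replicate 3, so no fold is given. It passed by edgeR (adjusted p = 0.0348) but not in limma-voom (adjusted p = 0.0775), nor when any db/db library was left out (adjusted p = 0.0950 to 0.111). The pattern receptor Tlr2 fell by 1.39, losing its call when any library other than db/m replicate 1 was left out (adjusted p up to 0.0977). The protease gene Lgmn fell by 0.47 on the log2 scale, losing its call without db/db replicate 3 (adjusted p = 0.0692) or db/m replicate 2 (adjusted p = 0.0501). Lgmn averaged 553 CPM in db/db and 766 CPM in db/m, far above the macrophage marker Adgre1 at 2.55 and 3.90 CPM. Which cells its RNA came from was not tested.

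A pair of dendritic cell genes rose in db/db. Cd209a, a lectin of monocyte-derived dendritic cells, had 48, 56 and 59 counts in db/db libraries, against 0, 0 and 7 counts in db/m libraries (edgeR adjusted p = 0.00960). All its db/m counts were in db/m replicate 3, so no fold is given, and the call held under all 15 alternatives. Flt3, the receptor on which dendritic cell growth depends, had 52, 51 and 48 counts in db/db libraries, against 13, 18 and 20 counts in db/m libraries (log2 fold change 1.89, SE 0.28, edgeR adjusted p = 0.00439), also under all 15 alternatives. Among the 14 listed, 2 rose and 2 fell. Fold changes were positive in 9 and negative in 5, with a median of 0.35 on the log2 scale. The groups did not overlap in 5 with db/db above and in 2 with db/db below, beside 22.4% and 22.2% of all tested genes. The falling ones were Cd24a and Naaa, by 0.84 and 0.62 on the log2 scale, the first also being expressed by kidney epithelium. Each lost its call when any library other than db/m replicate 1 was left out (lowest adjusted p 0.0663 for Cd24a and 0.0699 for Naaa). The type 1 dendritic cell genes Xcr1 and Clec9a overlapped, Xcr1 with 9, 12 and 13 counts in db/db, against 0, 27 and 7 counts in db/m.

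Of 32 other chemokines listed, 17 were tested, 3 rose and 1 fell. Ccl28, an epithelial chemokine, had 798, 458 and 546 counts in db/db libraries, against 29, 100 and 108 counts in db/m libraries (log2 fold change 3.30, SE 0.42, edgeR adjusted p = 0.00245). Cxcl14, also made by epithelium, had 1225, 1022 and 652 counts in db/db libraries, against 172, 211 and 456 counts in db/m libraries. Its log2 fold change was 2.11 (SE 0.43, edgeR adjusted p = 0.0136), and 2.72 without db/m replicate 3. In neither gene did the groups overlap, and both calls held under all 15 alternatives. Ccl25 rose by 0.62, and its call ended without any library other than db/m replicate 1 or db/m replicate 3 (adjusted p = 0.0585 to 0.0730). Cxcl13, which attracts B cells, had 13, 11 and 9 counts in db/db libraries, against 35, 34 and 44 counts in db/m libraries, and lost its call without any library other than db/m replicate 2 (adjusted p = 0.0542 to 0.0957). Of 19 chemokine receptors, 11 were tested, 0 rose by edgeR, DESeq2 or limma-voom, or at an unadjusted p below 0.05, and 1 fell. Cxcr4, the receptor of CXCL12, averaged 3.90 ± 0.470 CPM in db/db and 6.75 ± 1.83 CPM in db/m (edgeR adjusted p = 0.0491), and lost its call without any library other than db/m replicate 3 (adjusted p = 0.0795 to 0.145).

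In the remaining lists, 1 of 8 tested monocyte genes rose, Ace, which is also the angiotensin converting enzyme of the proximal tubule brush border (log2 fold change 2.32, SE 0.32, edgeR adjusted p = 0.00323). The 1 that fell, Nr4a1, is also an immediate early gene, and lost its call without db/db replicate 2, db/db replicate 3, db/m replicate 2 or db/m replicate 3 (adjusted p = 0.0730 to 0.136). Its log2 fold change was -2.59 over all libraries, -3.65 without db/db replicate 1 and -1.69 without db/m replicate 3. The monocyte markers Ly6c2 and Ccr2 did not pass (adjusted p = 0.828 and 0.569). All 16 other T cell genes tested had negative fold changes, with a median of -0.76 on the log2 scale. The 1 that fell was the transcription factor gene Bcl11b, by 1.02 on the log2 scale. Its call held only without db/db replicate 2 or db/m replicate 3 among the single-library omissions (adjusted p = 0.0815 to 0.122 in the other 4). On the CPM scale Bcl11b was highest in db/m replicate 1, at 12.8 CPM. In that library all 7 T cell members were the lowest of the db/m libraries. Which cells the Bcl11b RNA came from was not tested. Of 14 tested adhesion and cytokine genes 3 fell, Spp1, Adam17 and Mif, led by Spp1, which encodes osteopontin, at -1.61. Spp1 averaged 499 CPM in db/db and 1521 CPM in db/m, far above Ptprc at 5.34 and 7.80 CPM, and its cell source was not tested. The call on Adam17 ended without db/db replicate 1 (adjusted p = 0.0535) or db/m replicate 2 (adjusted p = 0.0671), and that on Mif without any library other than db/m replicate 3 (adjusted p = 0.0768 to 0.127). In 7 tested cytotoxic, 6 tested B cell and 6 tested neutrophil genes of the other lists 0 passed by edgeR, with 1, 0 and 2 lower at an unadjusted p below 0.05. DESeq2 called 1, 0 and 1 of these as lower and limma-voom 0. Of 3 tested mast cell genes 1 fell, Kit, by 0.51, which lost its call when any library other than db/m replicate 3 was left out (adjusted p = 0.0665 to 0.127). Kit had 191 to 483 counts per library, whereas Cpa3 of the same list had 0 to 13 counts, and the cell source of Kit was not tested.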

How the data were processed

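Per the labels' protocols, polyadenylated RNA of whole mouse kidney was made into strand-specific libraries. The deposited values are raw counts per gene symbol for 6 libraries, and fastp, FastQC, HISAT2, SAMtools, StringTie and DESeq2 are named in the submitters' processing notes. The sources used here do not give the genome build, the annotation or how reads were counted. Counts of 2 (4164) were commoner than counts of 1 (1318), and limits from a count of 0 (3 counts) cover counting error only.

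CPM are counts over library total times TMM factor. Genes were filtered with filterByExpr, scaled by TMM and compared with the edgeR 4.0.16 quasi-likelihood test (R 4.3.3) without covariates, with Benjamini-Hochberg adjustment over 16373 genes. Calls have an adjusted p below 0.05, and a log2 fold change is db/db over db/m, with SE equal to its size over the square root of F. The procedure was tested on simulated counts drawn independently for each gene. They held no genes moving together and no deviating library, so that test does not cover these features of the member results. Alternatives were DESeq2 1.42.0, limma-voom (limma 3.58.1), other scalings, no filter, a stricter filter (1 CPM and 10 counts in 3 libraries), a replicate block and omitted libraries. The members and lists were chosen with earlier results of these data known, so no test was made over a list. Named genes outside the members are up to 3 called genes in each direction per list, by smallest adjusted p, unless stated; 1 gene that met this rule is not reported here. Exon lengths and overlaps come from GENCODE M21. Libraries of a genotype differed by more than counting error (chi-square over its degrees of freedom 15.9 to 59.5 for the pairs).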

Additional observations from a re-analysis of the deposited data

How the results depend on the processing

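Over the 37 tested members and 15 alternatives, 473 of 545 fold changes kept their direction and their side of the threshold, 27 kept the direction and lost the call, 21 gained a call and 24 in 8 members changed sign, none of them called. With total counts only, the median log2 fold change of all genes was -0.32 instead of -0.06, 1072 genes were higher and 4883 lower, and the members' median was -0.89. The replicate block left 1313 genes higher and 973 lower and 3 members lower. Leaving out both replicates 3 left 1052 and 660 genes, with 2 members higher and 1 lower. Leaving out 1 library gave 1374 to 2011 genes higher, 851 to 1523 lower, 1 to 2 members higher and 1 to 13 members lower. Members called higher and lower were 3 and 8 in DESeq2 and 2 and 2 in limma-voom, and 2 were called higher without the filter. The causes were not tested.

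Members that changed sign were all uncalled. Itgam was 0.0903 in limma-voom, 0.0841 with the block and 0.46 without both replicates 3 (-0.30 to 0.44 with 1 library left out), and Fcgr1 0.20 and 0.0808 in the first 2 of these (-0.70 to 0.41). Cxcl1 was -0.15 with total counts (-0.85 to 1.98), and Cxcl16 -0.0132 with upper quartile scaling and -0.25 with total counts (-0.35 to 0.40). With 1 library left out, Tyrobp ran from -0.34 to 0.10, Fcer1g from -0.40 to 0.22, Cd79b from -0.31 to 0.0578 and S100a8 from -3.22 to 0.0888.

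Same-numbered libraries did not deviate together (correlations -0.15, 0.06 and 0.14 for numbers 1 to 3), and not every library correlated best with its own number, so the numbers were not taken as pairs. Low counts limit many members, and in 14 of the 40 the mean count per library was below 50. Counts were lowest in Ms4a1, Cxcr2, Gzma, Cd79a, Cd3d, Cd2 and Cd3e, for which only large differences would be detectable.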
